A study of Mus musculus with 36 samples.

Results

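The phase II conjugating enzymes of the mouse liver were followed through 3 gene families. These are the UDP-glucuronosyltransferases (UGT), the mostly cytosolic glutathione S-transferases (GST) and the cytosolic sulfotransferases (SULT). Their genes were taken by name, as every symbol in the count files that begins with Ugt and a digit, with Gst, a letter and a digit, or with Sult and a digit. That gave 61 of the 24421 symbols, namely 21 UGT, 21 GST and 19 SULT genes. The rule uses names alone and no measured value.

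Bulk RNA sequencing had been made from hepatocytes, hepatic stellate cells (HSC, the vitamin A storing pericytes of the sinusoid) and liver sinusoidal endothelial cells (LSEC) of C57BL/6 mice. Each cell type was represented by 4 libraries taken 12 h after injection of DT, 4 libraries taken 36 h after it and 4 libraries labelled WT, which the series design describes as PBS mice. The study used DT to deplete Kupffer cells (liver macrophages), and the times ask what their neighbours in the sinusoid then express. The labels used here give no genotype, sex or age, and do not say whether replicates came from separate mice, so the p-values measure only the spread between these libraries.

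Most UGT enzymes join glucuronic acid from UDP-glucuronate to bilirubin, steroids, bile acids and drugs. The products are water soluble for export into bile and urine. GST enzymes join glutathione to reactive electrophiles such as epoxides and lipid aldehydes, and SULT enzymes transfer a sulfonate group from the donor PAPS to phenols, steroids, bile acids and amines. The liver, and within it the hepatocyte, is the textbook site of this chemistry, while many GST genes are also expressed outside hepatocytes.

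The 36 libraries held 25404719 to 31734631 counts on genes. Levels are given as CPM, each gene's read count scaled to a common library size, on library sizes adjusted by the TMM method with 1 scaling over all 36 libraries. The labelled cell types were checked against their markers. Lrat, the retinol esterifying enzyme of stellate cells, had no count in WT hepatocytes and averaged 2926 CPM in WT HSC and 0.929 CPM in WT LSEC. Stab2, the hyaluronan receptor of sinusoidal endothelium, averaged 8.48 CPM in WT hepatocytes, 4.03 CPM in WT HSC and 4483 CPM in WT LSEC. Clec4f, a Kupffer cell lectin, had 0 counts in all 4 HSC libraries and all 4 hepatocyte libraries taken at 12 h, and was present in all 12 WT libraries at 0.17 to 7.08 CPM. Hepatocyte RNA was present at a low level in the other cells: Alb (albumin) averaged 46234 CPM in WT hepatocytes, 164 CPM in WT HSC and 59.3 CPM in WT LSEC, Apoa1 (apolipoprotein A1) averaged 11045, 32.7 and 12.0 CPM in the same order, and Ttr (transthyretin) averaged 4083, 9.67 and 3.71 CPM. In bulk samples, fewer cells of a type and less RNA per cell cannot be told apart.

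WT hepatocytes expressed most of the 61 genes, and expressed them highly. Of the 61, 45 averaged at least 1 CPM in WT hepatocytes (16 UGT, 17 GST and 12 SULT), and 31 averaged at least 100 CPM. In WT HSC 26 reached 1 CPM, made up of 8 UGT, 16 GST and 2 SULT genes, and in WT LSEC 16 did, made up of 2 UGT, 13 GST and 1 SULT. The UGT genes together summed to 7089 ± 311 CPM in WT hepatocytes, 26.2 ± 5.91 CPM in WT HSC and 6.44 ± 2.84 CPM in WT LSEC (SD, n = 4 each). The SULT genes summed to 3667 ± 713 CPM in WT hepatocytes, 45.5 ± 5.0 CPM in WT HSC and 39.0 ± 2.43 CPM in WT LSEC. The GST genes stood apart from both, with 8136 ± 1028 CPM in WT hepatocytes, 1098 ± 166 CPM in WT HSC and 415 ± 31.2 CPM in WT LSEC. Another 14 genes stayed under 1 CPM in every group, among them Sult1c1, Ugt2a2 and Ugt8a, which had no count in any of the 36 libraries.

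**Figure D1:**
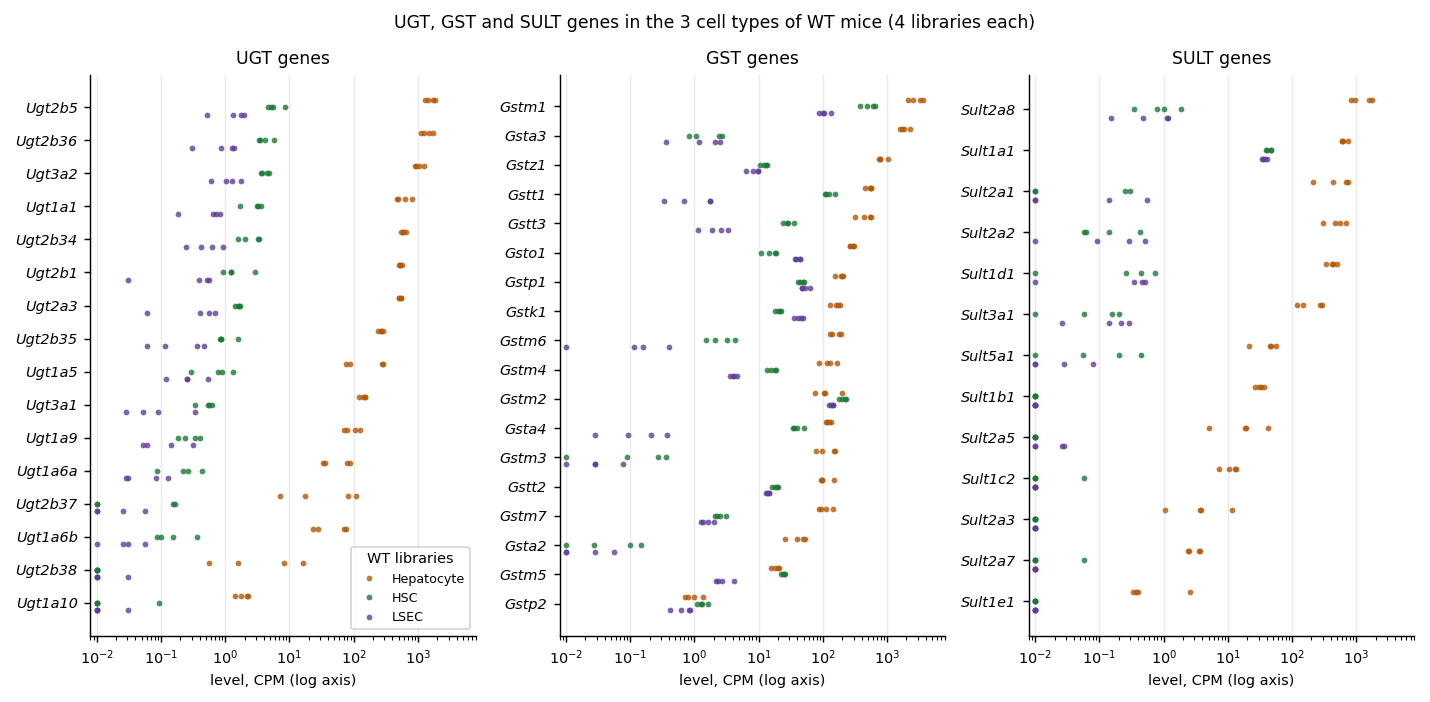
CPM (log axis) in each library of WT hepatocytes, WT HSC and WT LSEC (n = 4 libraries each), with UGT, GST and SULT genes in separate panels. Shown are the 47 genes whose mean reached 1 CPM in at least 1 of the 9 groups. Values under 0.01 CPM are drawn at 0.01. The UGT and SULT panels show hepatocytes far above the other cells for nearly every gene, Sult1a1 being the SULT gene that comes nearest, while in the GST panel several genes of HSC and LSEC reach into the hepatocyte range.

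Between genes, levels were compared per kilobase of exon not shared with another gene on the same strand. For Ugt1a1 that was 0.913 kb of 2.224 kb, so its place depends on how reads in shared exons were counted. In WT hepatocytes Gstm1, a mu class GST, was the highest at 2076 ± 480 CPM per kb, followed by Gsta3, the alpha class enzyme known in mice for detoxifying aflatoxin epoxide, at 1101 ± 181 CPM per kb. The leading UGT genes were Ugt2b5 at 840 ± 130, Ugt2b36 at 743 ± 146 and Ugt1a1, the bilirubin conjugating enzyme, at 658 ± 174 CPM per kb. The leading SULT genes were the hydroxysteroid sulfotransferases Sult2a2 at 673 ± 218, Sult2a1 at 510 ± 240 and Sult2a8 at 470 ± 165 CPM per kb, with the phenol sulfotransferase Sult1a1 at 426 ± 44.8 CPM per kb. Neighbours in this order from Ugt2b5 down differed by less than the sum of their SDs. In WT HSC the order was led by Gstm1 at 384 ± 91.1 CPM per kb, then Gstm2 at 174 and Gstt1 at 81.0 CPM per kb. In WT LSEC Gstm2 led at 114 CPM per kb, ahead of Gstm1 at 75.7 and the pi class gene Gstp1 at 58.6 CPM per kb.

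Some of these genes cannot be counted apart with certainty. The Ugt1a genes on chromosome 1 share their downstream exons, which make up 58.9% of the exon length of Ugt1a1, and how the authors assigned such reads is not given in the sources used here. Of the 50-base stretches of Sult2a2, 62.1% also occur in Sult2a1, of those of Gstp1 51% occur in Gstp2, of those of Ugt2b5 41.7% occur in Ugt2b38, and of those of Gsta1 89.7% occur in Gsta2. Values of these genes are uncertain to that extent.

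Tested across the 12 WT libraries, hepatocytes exceeded HSC for 44 of 48 genes that passed the filter on low counts, and were lower for 1 (edgeR quasi-likelihood test, Benjamini-Hochberg adjusted p under 0.05, called in what follows). All 16 tested UGT genes and all 13 tested SULT genes were higher in hepatocytes, as were 15 of 19 tested GST genes. Of all 13389 genes tested, 79.1% were called in this comparison, 35.9% higher and 43.2% lower in hepatocytes. The median log2 fold was 7.89 over the 48 genes and -0.18 over all genes. By family the median log2 fold of hepatocytes over HSC was 8.05 for UGT, 2.95 for GST and 10.24 for SULT genes. Against LSEC, 45 of the 48 were higher in hepatocytes and 0 lower, where 79% of all genes were called, 36.3% higher and 42.7% lower. No gene had an unadjusted p under 0.05 with a lower level in hepatocytes by edgeR, and DESeq2 called 0 lower. The median log2 fold was 9.83, and -0.18 over all genes. The filter kept a gene that was high enough in 1 cell type alone. In the separate fits of each cell type it kept 12 UGT and 5 SULT genes in HSC, and 9 and 3 in LSEC. Many UGT and SULT genes thus entered the WT fit through hepatocytes, so their counts and medians above were partly set by the filter.

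Against HSC the 5 largest fitted folds were all of SULT genes, and against LSEC they were those of Sult1b1, Sult2a1, Sult1c2, Gstm3 and Ugt2b37. Sult1b1, known for sulfating thyroid hormones, averaged 31.4 CPM in WT hepatocytes and had no count in WT HSC or WT LSEC. Against a floor of 3 counts over the 4 libraries, it was at least 1381-fold higher than in HSC and at least 1482-fold higher than in LSEC. Sult2a5 averaged 21.3 CPM in WT hepatocytes and had no count in WT HSC, which makes it at least 935-fold higher. Sult2a1 was higher in hepatocytes than in HSC by 11.87 on the log2 scale (SE 0.86, edgeR adjusted p = 1.42e-08), and Sult3a1, which sulfates amines, by 10.99 (SE 0.55, adjusted p = 2.79e-10).

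The exception was Gstm2, another mu class GST. It had 75.7, 106, 108 and 199 CPM in WT hepatocytes, 179, 196, 224 and 233 CPM in WT HSC and 126, 135, 141 and 142 CPM in WT LSEC. Hepatocytes had the lowest library, and 1 hepatocyte library lay inside the HSC range. The log2 fold of hepatocytes over HSC was -0.75 (SE 0.23, edgeR adjusted p = 0.00783). Of the 48 tested genes, Gstm2 was the only gene highest in HSC, and Gstm5, Gsto2 and Gstp2 had no single highest cell type.

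Because each stellate and endothelial library carried some hepatocyte RNA, the level in these cells was set beside that of 19 hepatocyte marker genes, each as a percentage of its own WT hepatocyte level. The markers lay between 0.0497% and 0.524% in WT HSC (median 0.286%) and between 0.0271% and 0.424% in WT LSEC (median 0.107%). Of the 43 genes with at least 5 CPM in WT hepatocytes, 15 lay above the marker range in HSC, namely 14 of 17 GST genes and Sult1a1, and none of the 15 UGT genes did. The values above ran from 1.49% to 170%, and the highest value not above was 0.487%. In LSEC 12 lay above, made up of 11 GST genes and Sult1a1, with values from 0.485% to 111%, and again none of the 15 UGT genes. The median of the UGT genes was 0.368% in HSC and 0.0944% in LSEC, so in both cells they spanned levels that the hepatocyte markers also spanned.

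The GST genes divided HSC from LSEC. Gsta4, the alpha class enzyme that conjugates the lipid aldehyde 4-hydroxynonenal, stood at 33.1% of its hepatocyte level in WT HSC and at 0.143% in WT LSEC. Gstt1, a theta class enzyme, stood at 23.3% and 0.212%. Sult1a1 was alike in both, at 6.72% in HSC and 5.78% in LSEC, as was Gstp1, at 24.8% and 28.0%. Gstk1, a kappa class enzyme of peroxisomes and mitochondria, went the other way with 12.8% in HSC and 26.8% in LSEC, and so did Gsto1, an omega class enzyme with dehydroascorbate reductase activity, with 5.45% and 14.4%.

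**Figure D2:**
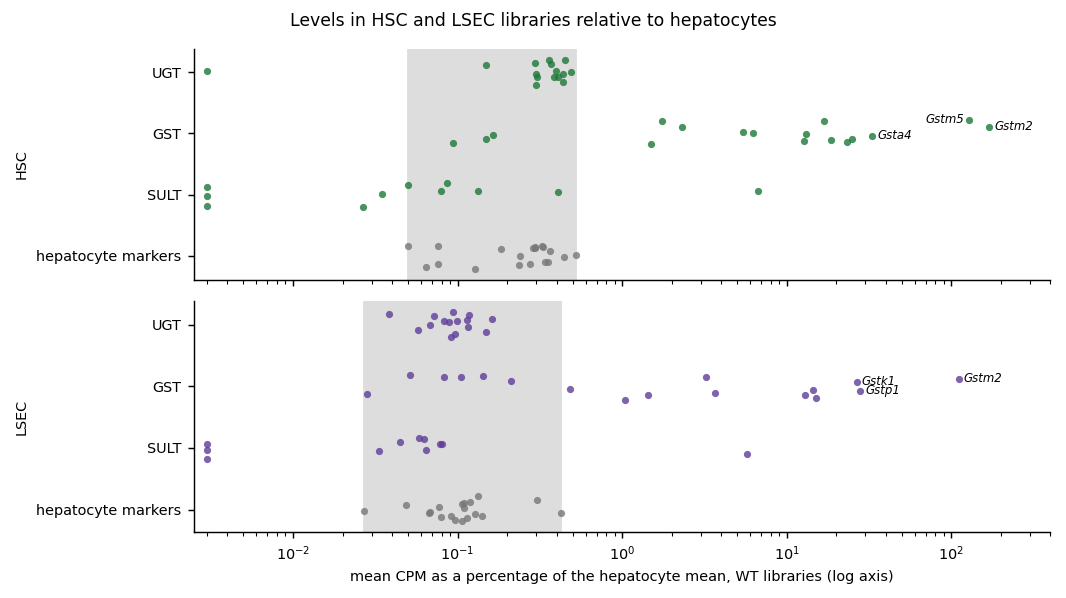
WT level of each gene in HSC and in LSEC as a percentage of its WT hepatocyte level (log axis), for the 43 genes with at least 5 CPM in WT hepatocytes. The grey band is the range of 19 hepatocyte markers (0.0497% to 0.524% in HSC, 0.0271% to 0.424% in LSEC), and values of 0 are drawn at 0.003%. The UGT genes lie within or under the band in both cells, and 14 GST genes in HSC and 11 in LSEC lie above it, with Sult1a1.

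In the direct comparison of the 2 sinusoidal cells, 21 of the 48 genes were higher in WT HSC than in WT LSEC and 2 were lower, where 56.8% of all genes were called, 29.7% higher and 27.1% lower. The 21 were 12 GST and 9 UGT genes. The median log2 fold was 1.59, and 0.01 over all genes. Beside the 9 UGT genes, 13 of the 19 hepatocyte markers were also higher in HSC and 1 was lower, with a median log2 fold of 1.37, and the part of that in the UGT result was not tested.

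Gsta4 had 50.2, 36.1, 34.8 and 39.8 CPM in WT HSC and 0.368, 0.0913, 0.208 and 0.0285 CPM in WT LSEC, a log2 fold of 7.80 (SE 0.32, edgeR adjusted p = 1.37e-10). Gstt1 had 153, 106, 112 and 125 CPM in WT HSC and 1.73, 0.335, 1.75 and 0.684 CPM in WT LSEC, a log2 fold of 6.77 (SE 0.40, adjusted p = 4e-09). In both genes every stellate library lay far above every endothelial one. Gstt3, Gstm5 and Gstm1 were higher in HSC by 3.68, 3.09 and 2.34 on the log2 scale. Gsto1 averaged 15.4 ± 3.45 CPM in WT HSC and 40.6 ± 3.54 CPM in WT LSEC (log2 fold -1.40, SE 0.16), and Gstk1 averaged 20.5 ± 2.19 and 43.0 ± 5.57 CPM (log2 fold -1.06, SE 0.13).

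The start regions of the genes differed between those above the hepatocyte marker range and the rest. RefSeq start regions on GRCm38.p6, 250 bases before to 50 bases after the annotated start, were matched for 53 of the 61 genes. Among the 15 genes above the range in HSC, 13 had a matched region, with a median of 13 CG dinucleotides (0 to 20). Among the 28 genes not above it, 24 had one, with a median of 2 (0 to 6). The median ratio of observed to expected CG was 0.568 above and 0.155 not above, and 0.389 over all 27025 regions in the table. The regions of Gsto1 and Gstk1, which are expressed in all 3 cell types, and of Ugt2b36, a gene of hepatocytes, are shown as examples, chosen after their values were seen, with every CG in capitals. Genes above the range with counts in the 0 to 6 span of the others were Sult1a1 with 0, Gstm2 with 3 and Gstt3 with 3. Gstm6 with 4 and Gstm7 with 6 also lay in that span. Since 14 of the 15 genes above the range are GST genes, the difference cannot be told apart from one between families. Gsto1 lies on the plus strand at chr19:47854723-47855022 and has 16 CG, Gstk1 on the plus strand at chr6:42245685-42245984 has 13, and Ugt2b36 on the minus strand at chr5:87092506-87092805 has 0.
Gsto1: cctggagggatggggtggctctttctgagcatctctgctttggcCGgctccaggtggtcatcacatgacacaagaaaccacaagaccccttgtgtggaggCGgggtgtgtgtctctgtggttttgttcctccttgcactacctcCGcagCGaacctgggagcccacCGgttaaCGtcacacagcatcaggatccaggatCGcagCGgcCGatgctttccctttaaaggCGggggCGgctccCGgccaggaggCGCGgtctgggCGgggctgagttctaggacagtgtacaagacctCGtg
Gstk1: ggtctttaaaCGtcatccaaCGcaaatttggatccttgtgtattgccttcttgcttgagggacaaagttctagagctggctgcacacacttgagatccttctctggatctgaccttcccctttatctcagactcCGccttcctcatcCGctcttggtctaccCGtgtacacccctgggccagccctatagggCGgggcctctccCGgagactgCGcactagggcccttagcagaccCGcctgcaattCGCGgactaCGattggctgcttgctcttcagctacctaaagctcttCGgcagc
Ugt2b36: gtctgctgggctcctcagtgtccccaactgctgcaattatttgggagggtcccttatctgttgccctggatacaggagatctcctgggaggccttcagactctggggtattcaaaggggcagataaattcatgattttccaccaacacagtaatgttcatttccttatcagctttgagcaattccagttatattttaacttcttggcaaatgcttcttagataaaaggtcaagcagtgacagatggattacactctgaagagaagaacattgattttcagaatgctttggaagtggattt

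The core of the antioxidant response element, the sequence bound by NRF2 and searched as TGACNNNGC on either strand, was found in 2 of the 53 matched regions, counting 1 region per gene, those of Gsta3 and Gstm5 (3.77%), against 12.5% of all regions. A second annotated start region of Gstm7 also held it.

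Stellate cells changed their conjugating enzymes at 12 h. Of 33 genes tested, 12 fell and 1 rose in HSC at 12 h relative to WT, where 32% of all 12676 genes tested were called, 17% higher and 15.1% lower. The genes that fell were 9 of 16 tested GST genes, 2 of 12 UGT genes and 1 of 5 SULT genes, and the gene that rose was Gsto1. The median log2 fold was -0.48 over the 33 genes and 0.01 over all genes, and 27 of the 33 had a fold below 0. The GST sum was 663 ± 137 CPM at 12 h and 974.6 ± 91.7 CPM at 36 h, against 1098 ± 166 CPM in WT HSC.

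Gsta4 fell furthest. It had 8.58, 10.8, 2.53 and 11.7 CPM at 12 h and 40.9, 38.3, 38.2 and 28.3 CPM at 36 h, against 50.2, 36.1, 34.8 and 39.8 CPM in WT HSC. All 4 libraries at 12 h lay under every other stellate library, and those at 36 h overlapped WT. The log2 fold at 12 h over WT was -2.26 (SE 0.33, edgeR adjusted p = 0.000294).

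Gstt1 fell to 45.0, 48.2, 23.1 and 61.1 CPM at 12 h and had 170, 151, 136 and 125 CPM at 36 h, against 153, 106, 112 and 125 CPM in WT HSC. The 12 h libraries again lay below all others, with a log2 fold of -1.48 (SE 0.23, adjusted p = 0.000427 by edgeR). Gstk1 had 10.5, 10.3, 7.68 and 10.7 CPM at 12 h and 23.1, 23.7, 23.1 and 20.5 CPM at 36 h, against 22.6, 17.7, 21.8 and 20.0 CPM in WT HSC. The 4 values at 12 h lay together below every WT and 36 h value, and the log2 fold was -1.06 (SE 0.13, adjusted p = 0.000107).

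Sult1a1, the only SULT gene of stellate cells above the hepatocyte marker range, fell too. It had 8.54, 15.9, 24.5 and 34.6 CPM at 12 h and 41.2, 40.8, 35.9 and 34.9 CPM at 36 h, against 46.1, 40.7, 47.2 and 38.8 CPM in WT HSC. The libraries at 12 h spread widely but none reached WT (log2 fold -1.05, SE 0.29, edgeR adjusted p = 0.0136).

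Several mu class genes fell, 4 of them above 5 CPM. Gstm1 had 254, 258, 236 and 385 CPM at 12 h and 448, 373, 526 and 345 CPM at 36 h, against 612, 375, 494 and 658 CPM in WT HSC. At 12 h 1 library lay inside the WT range, and the log2 fold was -0.91 (SE 0.20, edgeR adjusted p = 0.0039). Gstm4 changed by -0.62, Gstm2 by -0.57 and Gstm5 by -0.37 on the log2 scale (adjusted p = 0.011, 0.00886 and 0.0222). The zeta class gene Gstz1, which isomerises maleylacetoacetate in tyrosine breakdown, changed by -0.45 (adjusted p = 0.019). The calls of Gstm5 and Gstz1 were lost in some fits that left out a library, with edgeR adjusted p up to 0.0671 and 0.0665.

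Gsto1 moved in the other direction. It rose to 27.1, 24.5, 58.4 and 38.3 CPM at 12 h and had 12.8, 11.9, 14.8 and 12.5 CPM at 36 h, against 17.7, 10.8, 14.7 and 18.3 CPM in WT HSC. Every library at 12 h exceeded every other stellate library. The log2 fold at 12 h was 1.27 (SE 0.24, edgeR adjusted p = 0.00161). Gstp1, with 61.5 ± 23.0 CPM at 12 h and 46.3 ± 4.39 CPM in WT, was not called (log2 fold 0.41, 95% interval -0.05 to 0.87).

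The 2 UGT genes that fell were Ugt2b5 (log2 fold -0.94, SE 0.33, edgeR adjusted p = 0.04) and Ugt2b34 (-1.14, SE 0.40, adjusted p = 0.0415) and the mu class gene Gstm7 changed by -1.14 (SE 0.31, adjusted p = 0.0136). Ugt2b34 and Gstm7, both under 5 CPM, were singled out after their values were seen. Both UGT genes stood within the hepatocyte marker range in WT HSC, at 0.383% and 0.435% of their hepatocyte level, and the call of Ugt2b5 was lost in 6 fits that left out 1 library, with adjusted p up to 0.132. The 19 hepatocyte markers summed to 388 to 743 CPM at 12 h and to 361 to 507 CPM in WT HSC, and 2 of them, Fga and Fgb, rose.

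**Figure D3:**
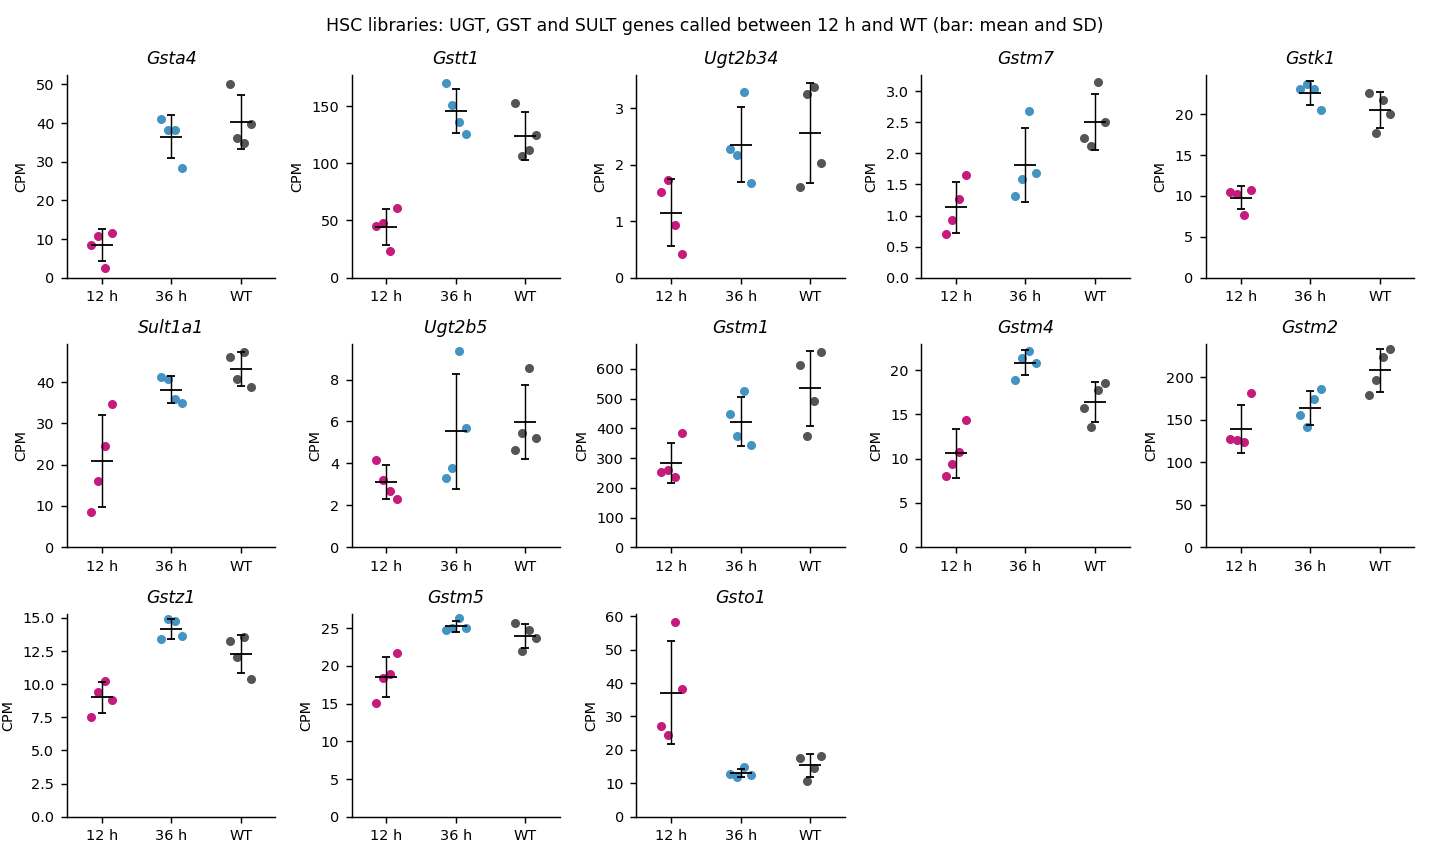
CPM in each HSC library at 12 h, at 36 h and in WT for the 13 genes called at 12 h over WT, 1 panel per gene, with points for libraries and lines for mean ± SD (n = 4). Gsto1 has its highest mean at 12 h, the other 12 genes have their lowest mean at 12 h, and the 36 h libraries overlap WT in all panels but that of Gstm4, where they lie above it.

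Other cell markers moved at the same time in HSC. The 20 stellate markers summed to 45360 to 64529 CPM at 12 h and to 64659 to 85593 CPM in WT, with 3 risen and 8 fallen. The 20 endothelial markers summed to 1833 to 2277 CPM at 12 h and 2950 to 3992 CPM in WT HSC, with 2 risen and 4 fallen. The 12 Kupffer cell markers summed to 276 to 543 CPM at 12 h and 522 to 785 CPM in WT, and Clec4f was at 0 at 12 h. The 9 monocyte and neutrophil markers summed to 446 to 954 CPM at 12 h and 203 to 285 CPM in WT, mostly from Plac8. Their part in the changes of the conjugating enzymes was not tested.

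At 36 h the stellate values overlapped WT for 12 of the 13 genes called at 12 h, Gstm4 being above it without a call. None of the 33 genes was called in HSC at 36 h over WT, where 0.142% of all genes were called, 0.134% higher and 0.00789% lower. By edgeR 1 of the 33, Gstm2, had an unadjusted p under 0.05, and DESeq2 called 0. The median log2 fold was 0.07, and -0.01 over all genes. In HSC at 36 h over 12 h, a comparison that shares the 12 h libraries with the one above, 9 genes rose and 1 fell, where 27.9% of all genes were called, 12.9% higher and 15% lower. Gsta4 rose by 2.11 (SE 0.33), Gstt1 by 1.71 (SE 0.23) and Gstk1 by 1.20 (SE 0.13) on the log2 scale. Gstm4 rose by 0.97, Sult1a1 by 0.87, Gstz1 by 0.65, Gstm1 by 0.57, Gstt2 by 0.55 and Gstm5 by 0.44, while Gsto1 fell by 1.51 (SE 0.24, edgeR adjusted p = 0.000706). The call was lost in 8 of 13 alternatives for Gstm1 and in 6 each for Sult1a1 and Gstt2, with adjusted p up to 0.141, 0.0864 and 0.0758.

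In endothelial cells the share of the genes that was called was near that of all genes. Of 27 genes tested in LSEC at 12 h over WT, 1 rose and 4 fell, where 18.2% of all 12286 genes tested were called, 9.74% higher and 8.5% lower. The median log2 fold was -0.37, and -0.02 over all genes. The gene that rose was again Gsto1, and the genes that fell were Sult1a1, Gstm2, Gstk1 and Gstm1.

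Gsto1 in LSEC rose to 71.8, 66.6, 81.8 and 65.7 CPM at 12 h and had 43.7, 46.7, 41.4 and 51.8 CPM at 36 h, against 43.5, 36.7, 38.4 and 43.7 CPM in WT. The 12 h libraries stood above all others, with a log2 fold of 0.84 (SE 0.11, edgeR adjusted p = 0.000397). Gstk1 had 25.4, 27.8, 23.8 and 31.0 CPM at 12 h and 42.8, 42.9, 48.8 and 47.8 CPM at 36 h, against 41.2, 36.1, 45.5 and 49.0 CPM in WT LSEC. No library at 12 h reached WT, and the log2 fold was -0.65 (SE 0.12, adjusted p = 0.0023).

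Sult1a1 in LSEC had 12.3, 15.3, 19.7 and 27.1 CPM at 12 h and 32.5, 31.4, 48.0 and 35.6 CPM at 36 h, against 40.2, 35.8, 34.4 and 38.1 CPM in WT. The groups at 12 h and in WT did not overlap (log2 fold -0.97, SE 0.21, edgeR adjusted p = 0.00585). Gstm2 had 74.0, 94.1, 70.4 and 99.5 CPM at 12 h, against 126, 135, 141 and 142 CPM in WT (log2 fold -0.66, SE 0.12, adjusted p = 0.00248), again without overlap. Gstm1 had 62.0, 90.3, 49.7 and 79.995 CPM at 12 h, against 133, 87.2, 99.6 and 103 CPM in WT. At 12 h 1 library lay inside the WT range, the log2 fold was -0.56 (SE 0.17, adjusted p = 0.0366), and the call was lost in 5 fits without 1 library, with adjusted p up to 0.111.

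The HSC and LSEC comparisons share no library, but same-numbered WT HSC and WT LSEC libraries deviated together (r 0.113 to 0.419), and whether they share mice is not labelled. All 5 genes called in LSEC at 12 h were among the 13 called in HSC, which is 100% of the endothelial and 38.5% of the stellate calls, and all 5 had the same sign. Over all genes, 59.2% of the endothelial and 32.7% of the stellate calls were shared, and 96.4% of the shared calls had the same sign. Of the 13 genes called in HSC, 12 could be tested in LSEC, and all 12 had the same sign of fold there, as did 85.1% of all such genes. Gsta4, which averaged 0.174 CPM in WT LSEC, could not be.

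In LSEC at 36 h over WT none of the 27 genes was called, as was true of 0% of all genes. By edgeR 2 of the 27 had an unadjusted p under 0.05, and DESeq2 called 0. In LSEC at 36 h over 12 h, 10 genes rose and 1 fell, where 21.3% of all genes were called, 10.6% higher and 10.8% lower. Sult1a1 rose by 0.95, Gstm4 by 0.91, Gstk1 by 0.72, Gstz1 by 0.64, Gstm2 by 0.60, Gstm1 by 0.54 and Gstt2 by 0.50 on the log2 scale, and Gsto1 fell by 0.67 (SE 0.11, edgeR adjusted p = 0.000967). The call was lost in 8 of 13 alternatives for Gstz1, 7 for Gstm1 and 3 for Gstt2, with adjusted p up to 0.133, 0.0928 and 0.0761. The other 3 that rose, Gsto2, Gstt3 and Gstm5, were under 5 CPM and were named after their values were seen. Without the third LSEC library at 36 h the count that rose was 6.

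The UGT transcripts of LSEC, which stood within the hepatocyte marker range, varied between libraries in step with albumin. At 36 h the UGT sum was 4.38, 5.73, 17.5 and 17.7 CPM, and Alb in the same libraries was 23.5, 28.5, 106 and 161 CPM. The 2 libraries with the higher UGT sums were also those with the higher Alb. At 12 h the endothelial markers summed to 29804 to 38505 CPM, against 44629 to 51172 CPM in WT LSEC, with 1 risen and 7 fallen of 20, and the hepatocyte markers summed to 112 to 221 CPM, against 61.4 to 215 CPM, with 0 of 19 called. The Kupffer cell markers summed to 612 to 943 CPM at 12 h, against 654 to 808 CPM in WT LSEC, with 1 risen and 5 fallen of 11 tested, and Clec4f was at 0 to 0.178 CPM at 12 h. The monocyte and neutrophil markers summed to 15.2 to 39.2 CPM at 12 h, against 12.1 to 15.7 CPM in WT LSEC, with 1 of 7 tested risen. The part of these in the changes at 12 h was not tested.

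Whether the cell types differed in response was tested directly, over all 36 libraries. The difference of the 12 h response, hepatocyte minus HSC, was called for 5 of 50 genes, 3 higher and 2 lower, where 9.2% of all 14104 genes tested were called, 4.17% higher and 5.03% lower. Gsta4 differed by 2.20 (SE 0.44, edgeR adjusted p = 0.00211), Gstk1 by 1.03 (SE 0.19, adjusted p = 0.001) and Sult1a1 by 1.12 (SE 0.35, adjusted p = 0.0372) on the log2 scale, and all 3 had fallen in HSC at 12 h. The call of Sult1a1 was lost in 10 of 20 alternatives, all without 1 library, with adjusted p up to 0.0695. Gsto1 differed by -1.26 (SE 0.26, adjusted p = 0.00241). The hepatocyte log2 folds at 12 h over WT were -0.11 for Gsta4, -0.08 for Gstk1, 0.02 for Sult1a1 and -0.04 for Gsto1, each with a 95% interval within -0.43 and 0.30.

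The fifth gene, Sult3a1 (difference -3.51, SE 1.13, edgeR adjusted p = 0.0459), rests on very low stellate values. It had 0.253, 0.119, 1.30 and 0.258 CPM in HSC at 12 h and 0.0585, 0.156, 0.201 and 0 CPM in WT HSC, and without the third HSC library at 12 h the adjusted p was 0.323. For hepatocyte minus LSEC no gene was called, where 3.57% of all genes were called, 1.6% higher and 1.97% lower. By edgeR 4 of 50 had an unadjusted p under 0.05, the smallest adjusted p was 0.0589, for Gsto1 (difference -0.83), and DESeq2 called 2. For HSC minus LSEC no gene was called, where 1.62% of all genes were called, 0.822% higher and 0.801% lower. By edgeR 3 of 50 had an unadjusted p under 0.05, and DESeq2 called 0. The difference for Gsto1 was 0.43 (95% interval -0.09 to 0.95) and that for Sult1a1 was -0.08 (-0.78 to 0.63), so these intervals leave room for unequal as well as equal responses.

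**Figure D4:**
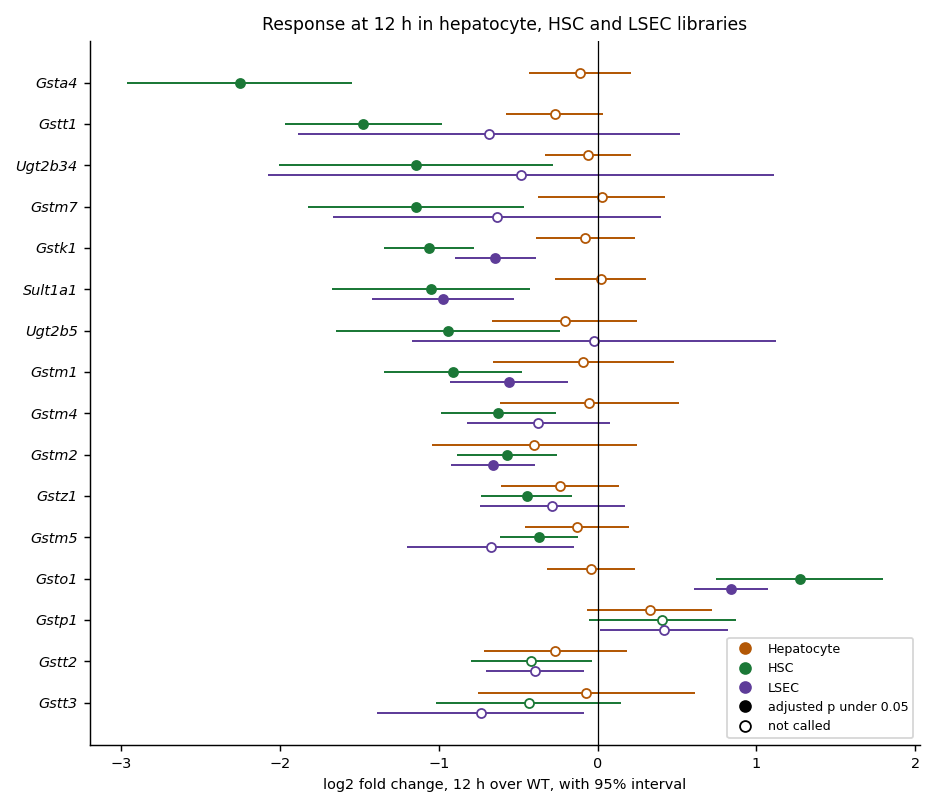
Log2 fold at 12 h over WT with its 95% interval in hepatocytes, HSC and LSEC for 16 genes. Filled points are called at adjusted p under 0.05 in the fit of that cell type, and a gene not tested in a cell type has no point there. Gsto1 lies above 0 in HSC (1.27) and LSEC (0.84) and at -0.04 in hepatocytes, while Gstk1, Sult1a1, Gstm1 and Gstm2 lie below 0 in HSC and LSEC.

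In hepatocytes no gene was called in any comparison of times. At 12 h over WT, at 36 h over WT and at 36 h over 12 h, 0 of 49 tested genes were called by edgeR, as was true of 0% of all 11326 genes. The number with an unadjusted p under 0.05 was 5, 6 and 9 of 49 in that order, and DESeq2 called 0 in each. The median log2 folds were -0.13, -0.07 and 0.14, and -0.01, 0.00 and 0.01 over all genes. The median half-width of the 95% intervals at 12 h over WT was 0.55 on the log2 scale. These intervals are not adjusted for the 11326 genes tested, so changes larger than that could also go uncalled. The UGT sum was 6430 ± 586 CPM at 12 h and 7641 ± 984 CPM at 36 h, against 7089 ± 311 CPM in WT hepatocytes.

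Values of 4 genes show the spread. Sult1b1 had 22.7, 19.5, 22.2 and 21.98 CPM at 12 h and 24.8, 36.8, 25.7 and 28.7 CPM at 36 h, against 26.7, 32.3, 30.2 and 36.4 CPM in WT hepatocytes. The 12 h libraries lay under all WT libraries (log2 fold -0.57, 95% interval -0.89 to -0.25), and the edgeR adjusted p was 0.53. Sult3a1, known to be higher in female than male mouse liver, had 131, 40.9, 72.5 and 86.8 CPM at 12 h and 269, 313, 85.1 and 157 CPM at 36 h, against 293, 270, 146 and 118 CPM in WT. The groups overlapped (log2 fold at 12 h -1.36, interval -2.32 to -0.39, adjusted p = 0.889). These genes were chosen after their values were seen, as were Sult2a1 and Gstp1, and Xist was detected in every library, at 3.12 to 60.8 CPM, with 4 counts in all on 4 genes of the Y chromosome.

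Sult2a1 had 505, 383, 440 and 688 CPM at 12 h and 69.0, 84.2, 450 and 422 CPM at 36 h, against 215, 681, 436 and 752 CPM in WT hepatocytes. The spread within groups exceeded any difference between them (log2 fold at 36 h over WT -1.05, interval -2.24 to 0.15). Gstp1 had 250, 355, 207 and 310 CPM at 36 h, against 205, 197, 154 and 192 CPM in WT hepatocytes. It did not overlap, and its adjusted p by edgeR was 0.626 (log2 fold 0.56, interval 0.18 to 0.95).

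The hepatocyte libraries fell into 2 sets that the labels do not describe. Malat1, a long RNA retained in the nucleus, was at 334 to 678 CPM in 5 libraries (1 at 12 h, 2 at 36 h and 2 in WT) and at 34.9 to 66.7 CPM in the other 7. The 5 were replicates 1 and 2 in WT and at 36 h and replicate 1 at 12 h, and same-numbered hepatocyte libraries at 36 h and in WT deviated together (r 0.478 to 0.605). Among the 43 genes with at least 5 CPM, 3 were higher in the 5 libraries without overlap and 5 were lower, where 11.9% of 9009 genes were higher and 15.6% lower without overlap. Both counts are smaller shares than those of all genes. The 5 that were lower were the 5 Ugt1a genes with at least 5 CPM. Since the Ugt1a genes share exons, they are not independent of each other. This split was made after values were seen and is described without a test.

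Ugt1a1 ran from 379 to 495 CPM in the 5 libraries high in Malat1 and from 616 to 816 CPM in the other 7. Ugt1a5 ran from 43.0 to 86.2 CPM and from 131 to 281 CPM, Ugt1a6a from 32.7 to 39.4 CPM and from 69.9 to 86.4 CPM, and Ugt1a9 from 47.6 to 83.7 CPM and from 88.2 to 150 CPM in the same order. The 3 that were higher in the libraries high in Malat1 were Sult2a8, known in mice for sulfating bile acids, with 1366 to 2161 CPM against 572 to 948 CPM, Ugt2b36 with 1377 to 2102 CPM against 1019 to 1328 CPM, and Ugt2b37 with 27.7 to 110 CPM against 7.06 to 23.9 CPM. With Malat1 as a term in the fit, and within the 7 libraries low in Malat1, 0 of the tested genes were called for any comparison of times. Few genes of any kind were called in these fits. At 36 h over WT, 4 rose and 6 fell of all 11326 genes with the term, and 10 rose and 0 fell of 11363 within the 7 libraries. The 5 libraries high in Malat1 hold only 1 at 12 h, so no count is given for them. Across all 12 hepatocyte libraries the median coefficient of variation was 20.6% for GST, 23.7% for UGT and 40.7% for SULT genes with at least 5 CPM.

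**Figure D5:**
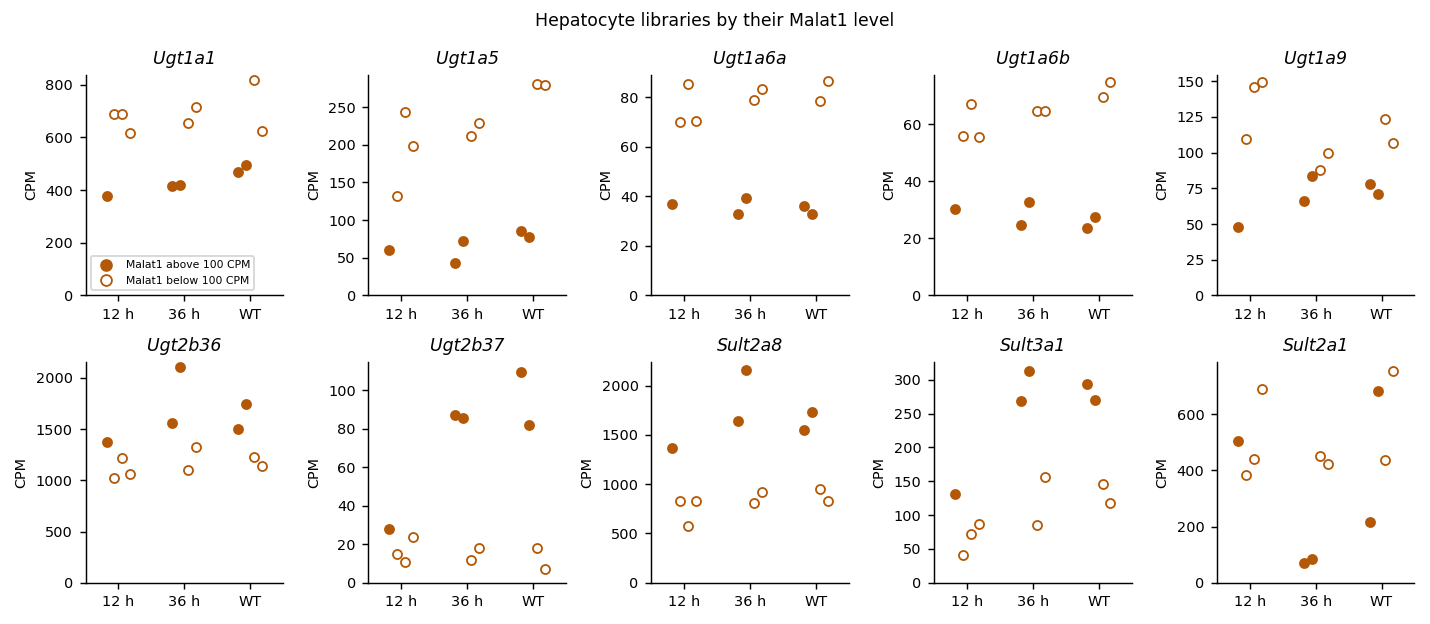
CPM of 10 genes in each of the 12 hepatocyte libraries at 12 h, at 36 h and in WT. Filled points are the 5 libraries with Malat1 above 100 CPM. The Ugt1a genes are lower and Ugt2b36, Ugt2b37 and Sult2a8 higher in the filled points in all 3 groups, while the groups themselves overlap.

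The cofactor supply and neighbouring enzymes were followed through lists of genes outside the 3 families. In HSC at 12 h over WT, 4 of 8 tested genes of glutathione supply rose and 0 fell, with a median log2 fold of 0.74. They were Gss (1.02, edgeR adjusted p = 0.000161) and Gclc (1.02), which carry out the 2 steps of glutathione synthesis, Gclm (0.76), the modifier subunit of the same ligase as Gclc, and Gsr (0.65), which reduces oxidised glutathione. Of 15 tested target genes of NRF2, the factor that induces antioxidant and many conjugating genes, 9 rose and 2 fell, with Hmox1 (haem oxygenase) at 1.52 (adjusted p = 6.9e-05) as the first. Of all genes tested, 17% rose. The same libraries are those in which 9 GST genes fell, and Nqo1 (-0.87) was among the NRF2 targets that fell.

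In LSEC at 12 h over WT, 3 of 9 tested genes of glutathione supply rose, Gclm by 0.48, Gsr by 0.44 and Gss by 0.38, and 8 of 15 NRF2 targets rose and 0 fell, with Hmox1 at 1.5 and Txnrd1 at 0.98. Of all genes tested in LSEC, 9.74% rose and 8.5% fell. The lists for the donors of the other families held fewer genes. For UDP-glucuronate, Ugdh rose by 0.29 in HSC as 1 of 2 tested genes, and none of 2 was called in LSEC. On the PAPS list, of 4 tested genes Bpnt1 rose and Impad1 fell in HSC and also in LSEC. Both encode phosphatases that do not make PAPS.

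Other detoxifying enzymes were called in both directions in HSC. Ephx1, the microsomal epoxide hydrolase, averaged 249 ± 47.9 CPM in HSC at 12 h, against 652 ± 25.7 CPM in WT HSC (log2 fold -1.39, edgeR adjusted p = 2.6e-05), and fell in LSEC by 0.96. Of 13 tested genes of other conjugating enzymes and epoxide hydrolases in HSC, 2 rose and 6 fell, among them Tpmt (-0.89) and the hydrolase Ephx2 (-1.53). Of all genes tested in HSC, 17% rose and 15.1% fell. In LSEC Ephx1 was the only gene of 13 called, where 18.2% of all genes tested were called, 9.74% higher and 8.5% lower. Of 4 tested microsomal and other glutathione transferases in HSC, Ptges, a prostaglandin E synthase, rose by 1.87 and Mgst3 fell by 0.92, with a median log2 fold of 0.65. In LSEC Mgst3 fell by 0.88 as the only gene of 3 called. Of the 5 tested enzymes that remove sulfate or glucuronate or activate sulfatases, 4 fell in HSC, with Arsb at -1.04, and in LSEC 1 rose and 3 fell, with Arsb at -1.23. None of these genes was called at 36 h over WT in either cell type, and none in hepatocytes at 12 h. Of all genes tested, 0.142% were called in HSC and 0% in LSEC at 36 h over WT, and 0% in hepatocytes at 12 h.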

How the data were processed

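The deposited files, 1 per library, hold whole counts of reads per gene symbol, made by the authors. Per the submitters' processing notes, FastQC 0.11.4, Trimmomatic 0.35, TopHat2 2.1.0, SAMtools 0.1.18 and mm10 were used. The counter, its annotation and its strand setting were not given in the sources used here. The 5 closing lines of each file (4.9% to 9.02% of reads without a feature, 0.887% to 1.51% ambiguous) were left out. No 2 libraries of a group were identical.

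Counts were tested with edgeR 4.0.16 in R 4.3.3 (quasi-likelihood test, TMM scaling, filterByExpr, Benjamini-Hochberg adjustment over all genes tested). The 12 WT libraries made 1 fit, the 12 libraries of each cell type another, and all 36 the fit of response differences. Each SE is the log2 fold over the root of F. The code was checked on simulated counts. Alternatives were RLE scaling, no filter, DESeq2 1.42.0, 2 groups alone, a replicate block and leaving out each library. Same-numbered libraries deviated together, with every r over 0.1, in 3 of 12 comparisons: HSC over LSEC in WT (0.113 to 0.419), and 36 h over WT in hepatocytes (0.478 to 0.605) and in HSC (0.115 to 0.279). Exon lengths came from GENCODE and start regions from RefSeq (GRCm38.p6).

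Genes named for times were called and had at least 5 CPM, up to 10 each way. For WT they were drawn from the 4 highest per family and cell type and the 5 largest folds each way, and not every gene of these sets was named. For response differences up to 5 each way were named, and for other lists up to 3 by adjusted p. Other named genes were chosen after their values were seen. The gene families, lists and tests were chosen with earlier results of these data known. Of 20 listed hepatocyte markers, 19 were in the files by symbol. 1 searched motif and 1 gene are not reported here.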

Additional observations from a re-analysis of the deposited data

Results flagged for a closer look

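In groups of 4 libraries, 1 library stood far from the other 3 in 9 of 150 combinations of gene and group examined. These covered 29 genes, in groups with a mean of at least 5 CPM, and not every gene with that level was examined. Chance gives about 1 in 20. In HSC at 12 h, Gstk1 was low in replicate 3 at 7.68 CPM, with the next at 10.3 CPM. In the same group replicate 4 was high for Gstm1 at 385 CPM (next 258 CPM) and for Gstm2 at 182 CPM (next 127 CPM). In LSEC at 12 h, Gstz1 was high in replicate 3 at 9.55 CPM, with the next at 6.29 CPM. In hepatocytes at 12 h, Gstt2 was high in replicate 1 at 104 CPM (next 89.9 CPM) and Sult1d1 was low in replicate 2 at 236 CPM (next 348 CPM). In WT hepatocytes replicate 2 was high for Gstt2 at 149 CPM (next 96.4 CPM) and for Gstz1 at 1014 CPM (next 780 CPM), and Gstt1 was low in replicate 1 at 460.4 CPM (next 547 CPM).

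The response at 12 h differed between hepatocytes and HSC by a test of the difference itself for 5 of 50 genes, where 9.2% of all genes were called. The log2 difference, hepatocyte minus HSC, was 2.20 for Gsta4, 1.03 for Gstk1, 1.12 for Sult1a1, -1.26 for Gsto1 and -3.51 for Sult3a1. For Sult3a1 the stellate values were at or under 1.30 CPM in every library at 12 h. The call was lost in 10 of 20 alternatives for Sult1a1 and in 12 of 20 for Sult3a1.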

How the results depend on the processing

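Of 57 results for single genes, 45 kept their call and direction under every alternative and 0 changed direction. Over 776 alternatives, 78 lost the call. The calls lost were those of Gstm5, Gstz1 and Ugt2b5 in HSC at 12 h over WT, Gstm1, Gstt2 and Sult1a1 in HSC at 36 h over 12 h, Gstm1 in LSEC at 12 h over WT, Gstm1, Gstt2 and Gstz1 in LSEC at 36 h over 12 h, and Sult1a1 and Sult3a1 in the difference of hepatocytes and HSC. Their adjusted p reached from 0.0665 to 0.323, and the cause was not tested.

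Counts of called genes moved by over 1.5 times as follows, with the cause not tested. Lower in WT hepatocytes than in HSC were 2 genes with no filter and 2 with those groups alone, against 1, and lower than in LSEC 1 with no filter, against 0. In LSEC at 36 h over 12 h, 2 fell by DESeq2 and 2 with the replicate block, against 1. For hepatocyte minus HSC, 1 was lower with no filter and 1 with the block, against 2. For hepatocyte minus LSEC, 1 was higher and 1 lower by DESeq2, and 1 higher with the block, against 0 each.

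Leaving out 1 library gave 44 to 45 genes higher in WT hepatocytes than in HSC, 0 to 1 lower than in LSEC, and 18 to 23 higher in HSC than in LSEC. In HSC at 12 h over WT it gave 1 to 2 risen and 8 to 12 fallen, and at 36 h over 12 h 7 to 11 risen. In LSEC it gave 1 to 2 risen and 3 to 5 fallen at 12 h over WT, and 6 to 10 risen and 1 to 2 fallen at 36 h over 12 h. The differences gave 2 to 4 higher and 1 to 2 lower for hepatocyte minus HSC, and 0 to 2 higher for hepatocyte minus LSEC.

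The replicate block, where the numbers may pair libraries, gave 24 higher and 2 lower in WT HSC over LSEC. In the 9 comparisons where some same-numbered libraries did not deviate together (lowest r -0.191), it gave 13 fallen in HSC at 12 h over WT, 11 risen at 36 h over 12 h, and 9 risen in LSEC at 36 h over 12 h. It changed no other count but those given above.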
